A study of Homo sapiens with 9 samples.

Results

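A set of 49 genes of mitosis and the G2/M transition was followed in A549 cells after siRNA against REV1. The members were taken by gene symbol from a list of known mitotic and G2/M genes, with no threshold on their values. They were chosen with earlier results of these data known, so shares set against all genes are a description. All 49 were found among the 18143 genes listed in each library. All 49 also passed the filter on low counts that left 14205 genes for testing. They fall into 11 roles: mitotic entry (7 genes), mitotic kinases (2), the spindle checkpoint (5), the anaphase promoting complex and sister separation (4), centromere and kinetochore (7), the chromosomal passenger complex (4), kinesins (6), spindle assembly (6), cytokinesis (4), the mitotic chromosome (2) and transcription factors (2).

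As background, entry into mitosis is driven by CDK1 bound to cyclin B, which CDC25 phosphatases switch on and the kinase WEE1 holds back. The spindle checkpoint then restrains CDC20, the activator of the anaphase promoting complex, until every kinetochore is attached to microtubules, after which separase parts the sister chromatids and the cell divides. Transcripts of most of these genes accumulate in G2 and mitosis under the factors FOXM1 and MYBL2 (B-Myb) and the MuvB complex, so a dividing culture carries more of them than a resting one. REV1 is a translesion DNA polymerase that inserts bases opposite damaged template and recruits other such polymerases.

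The samples were A549 cells, a human lung adenocarcinoma line, transfected for 48 h with a scramble control siRNA, with SiREV1#1 or with SiREV1#2, the 2 siRNAs being directed against the same transcript. Each of the 3 groups had 3 replicates, and poly(A) RNA was sequenced. All groups were the same line, with no other allele or agent given in the labels, and the labels do not say whether replicates were separate cultures, so p-values measure the spread between these samples only. RNA from whole cultures was measured, so fewer cells in mitosis and less mitotic RNA per cell cannot be told apart.

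The siRNAs lowered their target in every replicate. REV1 (chr2:99400477-99490202, GRCh38.p14) was at 7.23, 7.90 and 8.44 FPKM in scramble replicates 1 to 3, at 2.60, 2.92 and 3.36 FPKM after SiREV1#1, and at 3.62, 3.36 and 3.18 FPKM after SiREV1#2. FPKM are fragments per kilobase of transcript, scaled to the number of mapped fragments of the library, so that levels can be compared between genes. In edgeR's quasi-likelihood test REV1 was 2.40-fold lower after SiREV1#1 (adjusted p = 0.0420), and 2.52-fold lower after SiREV1#2, which did not pass without the replicate number as a block (adjusted p = 0.154) and passed with it (adjusted p = 0.00989).

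Total counts per library ranged from 13059082 to 20166451. The lowest total was that of SiREV1#1 replicate 1, and every other library with counts had at least 18121913. The third SiREV1#2 library repeats the counts of the second, so counts come from 8 libraries and FPKM from 9. Replicate 1 stood apart from replicates 2 and 3 in every group: over genes with at least 50 counts, the mean chi-square per gene between 2 libraries of a group was 221 to 329 for pairs with replicate 1, against 6.52 between scramble replicates 2 and 3 and 2.58 between SiREV1#1 replicates 2 and 3, where counting error alone gives about 1. The epithelial keratin KRT8 was at 1372 to 5602 FPKM, and KRT18, CDH1, EPCAM and KRT19 were detected in every library, EPCAM and KRT19 at or below 2.38 FPKM. The alveolar markers SFTPC, SFTPB and NKX2-1 were at or below 2.84 FPKM, and the leukocyte, endothelial and fibroblast markers PTPRC, PECAM1, VWF, COL1A1 and PDGFRB at or below 1.57 FPKM. The libraries thus carried the keratin KRT8 at a high level and little or none of the listed markers of alveolar type II and other cell types. The epithelial markers KRT19 and EPCAM were in the same low range as the alveolar markers.

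Many members share a short sequence at their promoters, and a few windows are shown so that the match can be seen in genes that passed and did not pass the test below. RefSeq start-site windows of 300 bases (250 before to 50 after the start, GRCh38.p14) were at hand for 41 of the 49 members, in 51 windows. The letters TTTGAA, the core of the cell cycle genes homology region through which the MuvB complex binds, were found on either strand in 32 of 51 windows (62.7%), against 15.2% of 35116 windows of the same length. The variant TTCGAA was in 4 windows (7.84% against 1.45%), and CCAAT, the box bound by NF-Y, in 38 windows (74.5% against 34.6%). Either core together with CCAAT was in 56.9% of the members' windows and 6.38% of all windows. The 30-base stretches below are written 5′ to 3′ on the gene's strand, with the TTTGAA match in capitals.
CDK1 (chr10:60778453-60778482, plus strand): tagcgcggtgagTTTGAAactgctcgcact
CCNB2 (chr15:59105105-59105134, plus strand): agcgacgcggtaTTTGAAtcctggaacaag
CDCA8 (chr1:37692481-37692510, plus strand): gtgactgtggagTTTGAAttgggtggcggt
KIF4A (chrX:70290058-70290087, plus strand): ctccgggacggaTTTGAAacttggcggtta
BUB1B (chr15:40161034-40161063, plus strand): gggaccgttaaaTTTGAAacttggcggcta
PLK1 (chr16:23678848-23678877, plus strand): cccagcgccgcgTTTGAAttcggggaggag
CDC20 (chr1:43358904-43358933, plus strand): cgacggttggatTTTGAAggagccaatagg
MKI67 (chr10:128126435-128126464, minus strand): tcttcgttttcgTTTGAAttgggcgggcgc

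These matches are a description of the letters in the windows. The first 5 genes are among those lower after SiREV1#1 in the test below, and the last 3 did not pass it. By gene, TTTGAA or TTCGAA was present for 15 of the 18 members with a window that passed that test, and for 16 of the 23 with a window that did not pass it. Genes with the core therefore stand on both sides of the test.

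The members were well expressed. Mean FPKM over the 9 libraries was highest for PTTG1, the separase inhibitor securin (109.8), CDC25B, a phosphatase that activates CDK1 (84.1), and UBE2C, the ubiquitin-conjugating enzyme of the anaphase promoting complex (71.6). It was lowest for the kinetochore subunit SPC24 (3.22), the separase ESPL1 (5.80) and the kinetochore motor CENPE (6.10). Summed over all 49 genes, the members made up 0.333%, 0.350% and 0.389% of all FPKM in scramble replicates 1 to 3. The sum was 0.195%, 0.237% and 0.237% after SiREV1#1, so that every SiREV1#1 library lay below every scramble library. After SiREV1#2 it was 0.222%, 0.324% and 0.303%, also below the lowest scramble library, with replicate 1 well under the other libraries of its group. Without the 3 most abundant genes the group means were 0.292%, 0.185% and 0.228%, in the same order.

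**Figure D1:**
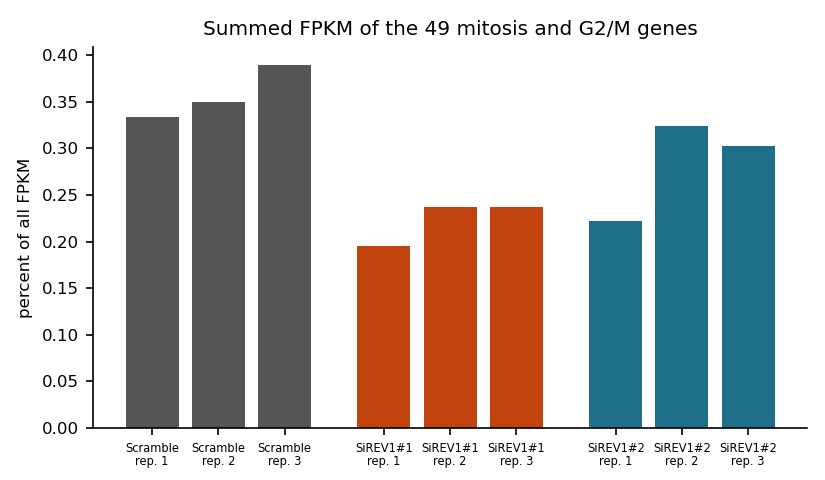
Bars give the summed FPKM of the 49 mitosis and G2/M genes in each library as a percent of all FPKM, for scramble (grey), SiREV1#1 (red) and SiREV1#2 (blue), with the replicate under each bar. Scramble libraries reach 0.333 to 0.389%, SiREV1#1 libraries 0.195 to 0.237% and SiREV1#2 libraries 0.222 to 0.324%.

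Transcripts of nearly the whole set were lower after SiREV1#1. Within same-numbered replicates, 46 of 49 members were lower than scramble in 3 of 3 pairs, against 32.6% of all genes tested, and 0 were higher in 3 of 3 pairs, against 19.0% of all genes. The exceptions were SPC24, FOXM1 and MYBL2, each lower in 2 of 3 pairs. For 31 members the SiREV1#1 and scramble libraries did not overlap, against 12.5% of all genes. The median log2 ratio of the members was -0.66, -0.48 and -0.61 in replicates 1 to 3, and that of all genes -0.13, -0.02 and -0.01. Differences of more than 2-fold were less common: 8 members were past this in replicate 1 (3.45% of all genes) and 4 in both replicates 2 and 3 (1.39% of all genes).

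In edgeR's test without a block, 0 of 49 members passed an adjusted p of 0.05 after SiREV1#1 (21 at an unadjusted p under 0.05, against 9.75% of all genes), and 0.260% of all genes were called lower. With the replicate number as a block, which removes the shift of replicate 1, 23 of 49 members were lower and 0 higher, against 6.96% of all genes lower and 5.32% higher. The median log2 fold change of the members was -0.57 in both fits, and that of all genes was near 0 (0.0024 without and 0.0042 with the block). DESeq2 without a block called 7 members lower, against 2.51% of all genes. The count with the block was smaller without any scramble library: 3, 4 and 2 without replicates 1, 2 and 3. It was also smaller without SiREV1#1 replicates 2 and 3 (9 and 2), and larger, 36, without SiREV1#1 replicate 1. All statements below that a gene fell after either siRNA refer to the fit with the block.

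Among the 7 genes of mitotic entry, 4 fell after SiREV1#1. CDK1, the kinase that drives mitosis (chr10:60778331-60794852), was at 57.58, 82.72 and 89.80 FPKM in scramble and at 14.61, 29.97 and 30.79 FPKM after SiREV1#1. All SiREV1#1 libraries lay below all scramble libraries, and the difference was the largest of the members, 3.00-fold (log2 -1.58 ± 0.13 SE, adjusted p = 0.00109). Cyclin B2 (CCNB2; log2 -0.58), CDC25B (-0.61) and CDC25C (-0.76), the last 2 being activators of CDK1, fell less. Cyclin B1 (CCNB1), the main partner of CDK1, was at 72.26, 41.21 and 42.45 FPKM in scramble and at 27.66, 38.73 and 36.21 FPKM after SiREV1#1. It was lower in every pair without overlap, but its share of scramble was 38.3% in replicate 1 and 94.0% and 85.3% in replicates 2 and 3, and it did not pass (adjusted p = 0.240). Cyclin A2 (CCNA2; log2 -0.12, adjusted p = 0.544) and cyclin F (CCNF; -0.57, adjusted p = 0.0588) did not pass either.

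The mitotic kinases differed from each other. AURKA, the centrosomal kinase that builds the spindle poles, was at 52.57, 66.57 and 73.52 FPKM in scramble and at 26.45, 35.32 and 35.24 FPKM after SiREV1#1, with no overlap, a fall of 0.90 on the log2 scale (SE 0.12, adjusted p = 0.00459). PLK1, which acts in mitotic entry and at kinetochores, was at 64.70, 36.15 and 38.89 FPKM in scramble and at 58.21, 28.09 and 27.23 FPKM after SiREV1#1. Its groups overlapped and it did not pass (log2 -0.26, adjusted p = 0.303).

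In the spindle checkpoint 4 of 5 genes fell. BUB1B (BubR1), a subunit of the inhibitor of CDC20, was at 15.22, 15.54 and 17.48 FPKM in scramble and at 7.65, 9.03 and 9.52 FPKM after SiREV1#1, with no overlap (log2 -0.81 ± 0.14, adjusted p = 0.0101). The kinase BUB1 (-0.55), the kinetochore checkpoint protein MAD2L1 (-0.65) and the kinase TTK (-0.75) also fell, while BUB3 (-0.34, adjusted p = 0.124) did not pass. Downstream of the checkpoint, PTTG1 was at 139.54, 130.40 and 137.42 FPKM in scramble and at 78.55, 76.82 and 79.66 FPKM after SiREV1#1. These are narrow groups, well apart, and PTTG1 fell by 0.72 on the log2 scale (SE 0.12, adjusted p = 0.0108). UBE2C fell with it (-0.61). CDC20 (-0.54, adjusted p = 0.154) and ESPL1 (-0.12, adjusted p = 0.628) did not pass.

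At the centromere and kinetochore 2 of 7 genes fell, the centromeric histone CENPA (-0.68) and NDC80 (-1.01), a microtubule-binding subunit of the kinetochore. NDC80 was at 4.70, 10.16 and 11.78 FPKM in scramble and at 1.58, 6.41 and 5.59 FPKM after SiREV1#1, lower in every pair while the groups overlapped because replicate 1 was low in both. Its partners NUF2 (-0.55), SPC24 (0.13) and SPC25 (-0.11) did not pass, nor did CENPE (-0.77) and CENPF (-0.68). In the chromosomal passenger complex, which corrects faulty attachments, 3 of 4 genes fell. CDCA8 (borealin) was at 11.58, 25.56 and 27.76 FPKM in scramble and at 4.67, 10.78 and 11.14 FPKM after SiREV1#1, 2.32-fold lower (log2 -1.21 ± 0.12, adjusted p = 0.00194). INCENP, the scaffold, was at 16.46, 12.00 and 13.60 FPKM and then at 10.11, 5.03 and 5.37 FPKM, 2.18-fold lower (adjusted p = 0.00945). In both genes the groups were apart. Survivin (BIRC5) fell by 0.51 on the log2 scale, and the kinase of the complex, AURKB, did not pass (-0.12, adjusted p = 0.532).

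Of the 6 kinesins, 4 fell. KIF4A, a chromosome-bound motor of the central spindle, was at 12.75, 17.34 and 18.72 FPKM in scramble and at 6.02, 7.38 and 7.32 FPKM after SiREV1#1, 2.21-fold lower with no overlap (adjusted p = 0.00510). KIF11 (Eg5), which pushes the spindle poles apart, KIF2C (MCAK), a microtubule depolymerase, and KIF20A fell by 0.80, 0.73 and 0.71 on the log2 scale. KIF18A and KIF23 did not pass. In spindle assembly 1 of 6 genes fell (DLGAP5, log2 -0.91), and in cytokinesis 1 of 4 (RACGAP1, log2 -0.55). The other members of these roles had log2 fold changes below 0 and did not pass: TPX2 (-0.55), HMMR (-0.53), ASPM (-0.43), NUSAP1 (-0.35) and CKAP2 (-0.33) in the spindle, and PRC1 (-0.33), ANLN (-0.30) and ECT2 (-0.27) in cytokinesis.

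TOP2A, the topoisomerase that untangles sister chromatids, was at 81.98, 77.30 and 89.21 FPKM in scramble and at 40.74, 55.78 and 53.27 FPKM after SiREV1#1, and fell by 0.67 on the log2 scale (SE 0.16, adjusted p = 0.0317). MKI67, the proliferation antigen that coats mitotic chromosomes, was at 37.39, 26.93 and 31.76 FPKM in scramble and at 33.39, 13.20 and 13.64 FPKM after SiREV1#1. It was thus at 89.3% of scramble in replicate 1 and at 49.0% and 42.9% of it in replicates 2 and 3, and did not pass (adjusted p = 0.188). Neither transcription factor passed after SiREV1#1. FOXM1 was at 29.92, 26.62 and 27.49 FPKM in scramble and at 30.43, 17.24 and 17.69 FPKM after SiREV1#1, level in replicate 1 and lower in the others, and MYBL2 was close to scramble in every pair (log2 0.03 ± 0.14, adjusted p = 0.909).

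**Figure D2:**
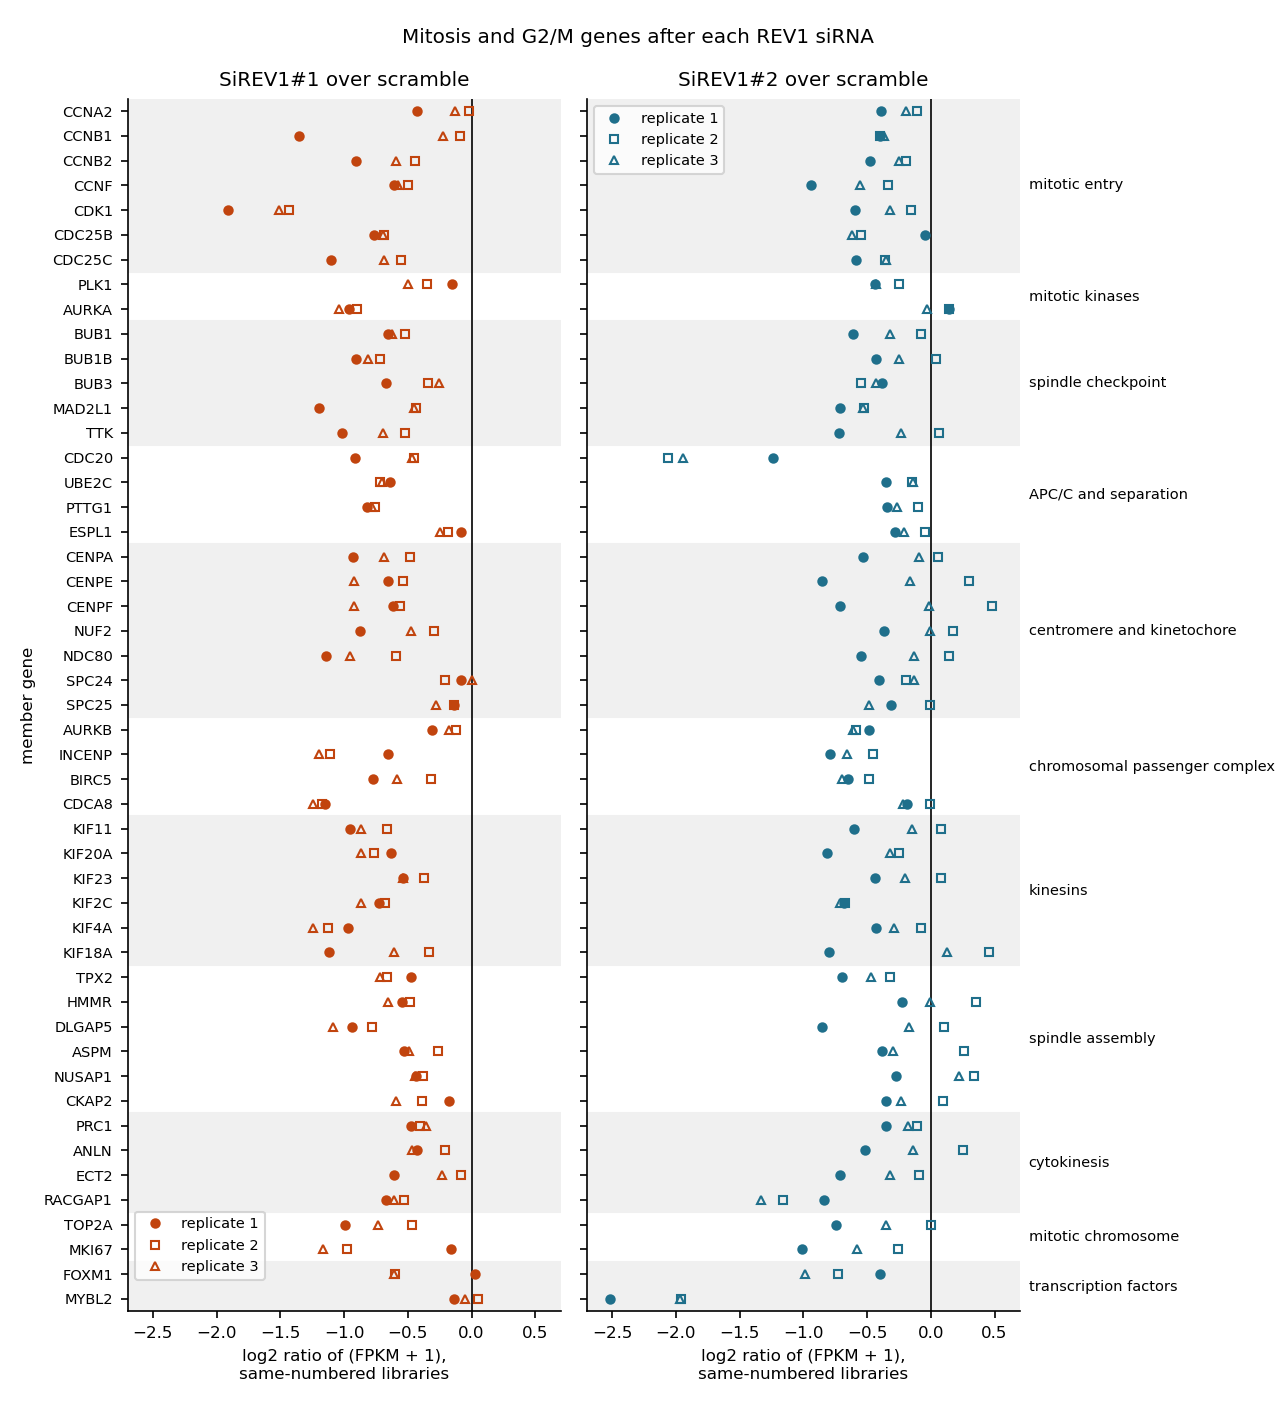
Each point is the log2 ratio of (FPKM + 1) of 1 siRNA library over the same-numbered scramble library, for each of the 49 genes grouped by role, with replicate 1 filled and replicates 2 and 3 open. After SiREV1#1 nearly every point lies below 0, with CDK1 lowest, while after SiREV1#2 most points of replicate 2 lie near 0 and MYBL2, CDC20 and RACGAP1 lie far below it.

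With SiREV1#2, 3 members passed the test with the block: MYBL2, CDC20 and RACGAP1. This fit held no counts of SiREV1#2 replicate 3, while scramble and SiREV1#1 had 3 libraries each. The numbers called after the 2 siRNAs are therefore not on equal terms. In that fit 35 of the 49 members had the lower level after SiREV1#1 and 14 after SiREV1#2, most of them without passing the test between the siRNAs given below. In same-numbered replicates 32 of 49 members were lower than scramble in 3 of 3 pairs (28.7% of all genes), 0 were higher in 3 of 3 pairs (23.3% of all genes), and 18 were lower without overlap (9.10% of all genes). The number of members below scramble was 48, 32 and 47 in replicates 1 to 3, with median log2 ratios of -0.51, -0.10 and -0.29. Of all 14205 genes, 7935, 7160 and 6950 were below scramble in these replicates, so the members' 32 of 49 in replicate 2 was the count nearest to the background. KIF18A and NUSAP1 were lower in replicate 1 and higher in replicates 2 and 3, which held for 14.6% of all genes. Without a block, edgeR passed 0 of 49 members (5 at an unadjusted p under 0.05, against 5.48% of all genes) and 0% of all genes were called lower. DESeq2 called 1 member lower, against 1.08% of all genes. With the block 3 members fell and 0 rose, against 1.41% of all genes lower. Here and below, the share of all genes called higher in this fit is not given, so counts of rises after SiREV1#2 have no background.

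MYBL2, the B-Myb subunit that activates G2/M genes with the MuvB complex (chr20:43667114-43716482), was at 59.92, 38.84 and 38.89 FPKM in scramble, at 54.36, 40.31 and 37.58 FPKM after SiREV1#1 and at 9.66, 9.23 and 9.19 FPKM after SiREV1#2. The SiREV1#2 libraries lay far below all others and close to each other, 5.03-fold under scramble (log2 -2.33 ± 0.18, adjusted p = 0.00481). CDC20 (chr1:43358981-43363203) was at 65.47, 34.43 and 32.41 FPKM in scramble, at 34.26, 24.90 and 23.16 FPKM after SiREV1#1 and at 27.10, 7.49 and 7.69 FPKM after SiREV1#2. It was 3.09-fold lower after SiREV1#2 (adjusted p = 0.0307) without overlap.

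RACGAP1, a subunit of centralspindlin that sets the division plane, was at 24.04, 44.51 and 47.67 FPKM in scramble, at 14.74, 30.44 and 30.85 FPKM after SiREV1#1 and at 12.98, 19.34 and 18.33 FPKM after SiREV1#2. It was the 1 member that passed against scramble with both siRNAs, at 2.04-fold lower after SiREV1#2 (adjusted p = 0.0227) and 1.46-fold lower after SiREV1#1 (adjusted p = 0.0321). The 2 comparisons share the scramble libraries. The count of 3 was 0 without scramble replicate 1, scramble replicate 2 or SiREV1#2 replicate 2, 2 without scramble replicate 3 or SiREV1#1 replicate 3, 3 without SiREV1#1 replicate 2 or SiREV1#2 replicate 1, and 13 without SiREV1#1 replicate 1. In single genes, 3 libraries against 3 cannot reach an exact permutation p below 0.1.

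More than 2-fold differences were few after SiREV1#2. In replicate 1, MYBL2, CDC20 and MKI67 were past 2-fold lower (1.05% of all genes), and in both replicates 2 and 3 MYBL2, CDC20 and RACGAP1 were (1.52% of all genes). The kinases that fell after SiREV1#1 did not pass after SiREV1#2: CDK1 was at 37.89, 74.15 and 71.61 FPKM (log2 -0.34, adjusted p = 0.306) and AURKA at 58.14, 73.70 and 72.19 FPKM (log2 0.14, adjusted p = 0.665). KIF2C (-0.71, adjusted p = 0.0534), BIRC5 (-0.58, adjusted p = 0.0948) and INCENP (-0.73, adjusted p = 0.135) were lower in every pair and did not pass. FOXM1 was at 22.43, 15.71 and 13.41 FPKM, below every scramble library, and did not pass (-0.63, adjusted p = 0.186). Of the other central genes, cyclin F (-0.72), MKI67 (-0.69), AURKB (-0.52), PLK1 (-0.38), TOP2A (-0.36), BUB1 (-0.34), CCNB1 (-0.31), KIF11 (-0.26), CCNA2 (-0.23) and CENPF (-0.12) did not pass, nor did HMMR (0.06) and NUSAP1 (0.06).

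**Figure D3:**
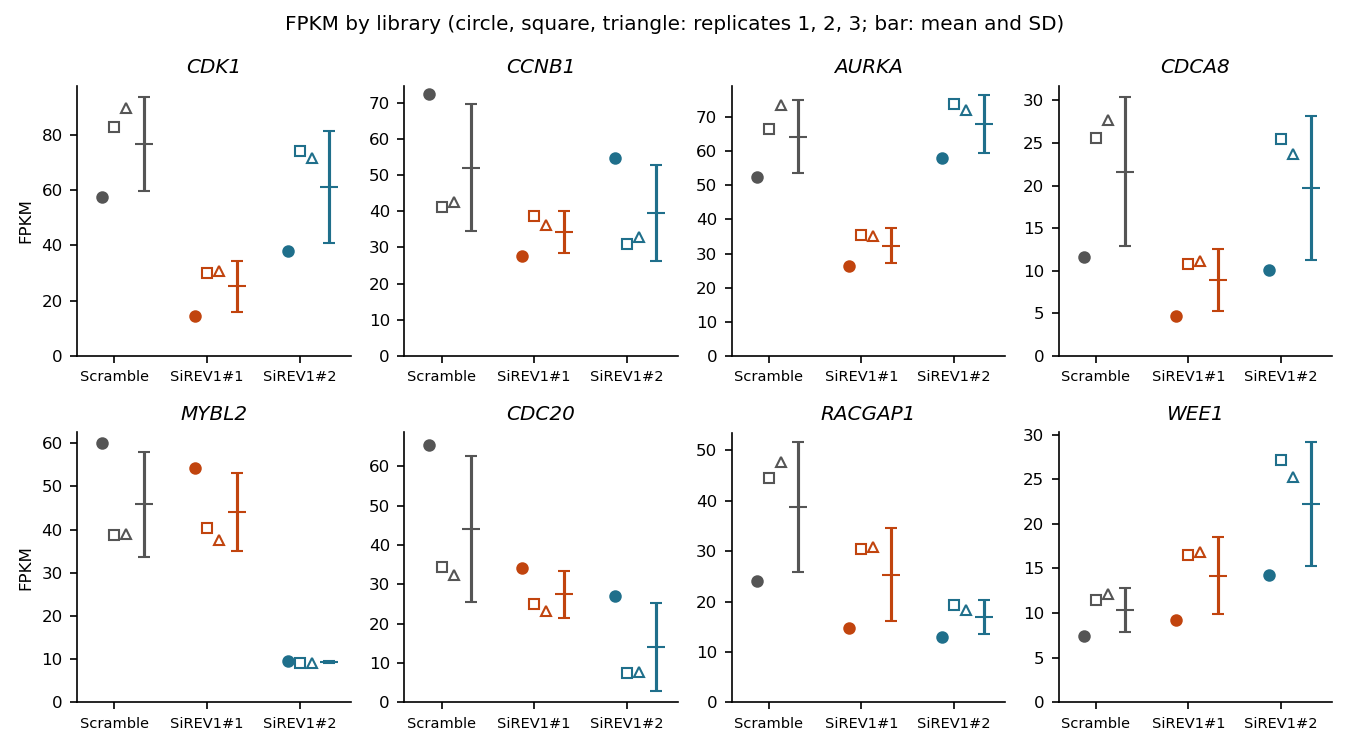
FPKM of 7 members and of WEE1 in each library, by group, with replicate 1 as a filled circle, replicates 2 and 3 as an open square and triangle, and the mean and SD of the 3 libraries beside them. CDK1, AURKA and CDCA8 are lowest after SiREV1#1, MYBL2, CDC20 and RACGAP1 after SiREV1#2, and WEE1 is highest after SiREV1#2.

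The direct comparison of the siRNAs tests where they differed. Without a block, MYBL2 alone differed, 4.87-fold higher after SiREV1#1 than after SiREV1#2 (adjusted p = 0.0359), beside 0.246% of all genes higher and 0.429% lower. It passed also without scramble replicate 1 or SiREV1#1 replicate 1, and not without any 1 of the other 6 libraries. With the block 2 members were higher after SiREV1#1 (8.75% of all genes) and 7 lower (8.87% of all genes), so the share of members called was near that of all genes. The members higher after SiREV1#1 were MYBL2 and CDC20 (log2 1.09 ± 0.27, adjusted p = 0.0311), while RACGAP1 (0.48) did not pass. The 7 lower were CDK1 (-1.25 ± 0.15, adjusted p = 0.00282), CDCA8, AURKA, KIF4A, BUB1B, PTTG1 and NDC80. REV1 itself did not pass between them (log2 0.00 ± 0.15 with the block, adjusted p = 0.995). The count of 9 was 6, 4 and 5 without scramble replicates 1 to 3, 16, 4 and 5 without SiREV1#1 replicates 1 to 3, and 14 and 4 without SiREV1#2 replicates 1 and 2.

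The comparison was extended to further genes of the same phase. Of 66 other G2/M genes, 23 fell and 1 rose after SiREV1#1 with the block, against 6.96% of all genes lower and 5.32% higher. Without the block 0 passed (16 at an unadjusted p under 0.05, beside the 9.75% of all genes above). Those that fell included the histone chaperone and MuvB subunit RBBP4 (log2 -1.76, adjusted p = 0.00111), the condensin subunit NCAPG2 (-1.39, adjusted p = 0.00111), the protector of centromeric cohesion SGO2 (-1.56, adjusted p = 0.00263) and the kinetochore protein MIS12 (-0.82, adjusted p = 0.00713). RBBP4 was at 20.66, 11.78 and 11.36 FPKM in scramble, at 4.44, 3.54 and 3.82 FPKM after SiREV1#1 and at 17.89, 8.91 and 8.69 FPKM after SiREV1#2. After SiREV1#2, 1 of the 66 fell (UBE2S, -0.99, adjusted p = 0.0372), a share near the 1.41% of all genes lower. Another 1 of the 66 rose, with no share of all genes higher to set beside it.

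The gene that rose after both siRNAs was WEE1, the kinase that keeps CDK1 inactive before mitosis. It was at 7.48, 11.42 and 12.12 FPKM in scramble, at 9.21, 16.51 and 16.84 FPKM after SiREV1#1 and at 14.25, 27.13 and 25.21 FPKM after SiREV1#2. It was higher than scramble in every pair, which held for 19.0% of all genes after SiREV1#1 and 23.3% after SiREV1#2. With the block, WEE1 was 1.43-fold higher after SiREV1#1 (adjusted p = 0.0313) and 2.17-fold higher after SiREV1#2 (adjusted p = 0.0128). It was lower after SiREV1#1 than after SiREV1#2 (log2 -0.60, adjusted p = 0.0239). The other genes grouped with WEE1 in this list had log2 fold changes below 0 after SiREV1#2, none passing with the block. They were GADD45A (-0.96), PKMYT1 (-0.83), SFN (-0.66), CDKN1A (-0.64), FBXO5 (-0.55) and FZR1 (-0.10). Their changes after SiREV1#1 are not given here. Among 35 G1/S genes, which act in DNA replication, 10 fell and 0 rose after SiREV1#1 with the block (6.96% of all genes lower). After SiREV1#2, 2 fell and 0 rose (1.41% of all genes lower). Their median log2 fold changes were -0.55 and -0.41, beside -0.57 and -0.31 for the 49 members. In same-numbered replicates, 85.7% and 88.6% of the G1/S genes were lower in 3 of 3 pairs after SiREV1#1 and SiREV1#2. These shares were 93.9% and 65.3% for the members and 75.8% and 53.0% for the 66 other G2/M genes. Over all genes they were 32.6% and 28.7%, so the fall was not particular to the members.

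Replicate 1 differed from replicates 2 and 3 across the whole transcriptome, and the members took part. This split was made with earlier results of these data known, so its p-values only set its size against the remaining spread. In a fit of group and replicate 1, 10 members were higher in replicate 1 (31.2% of all genes) and 21 lower (30.7% of all genes), and the median log2 difference of the members was -0.19, beside 0.02 for all genes. The members lowest in replicate 1 were KIF18A (-1.90 ± 0.20, adjusted p = 5.51e-05), NDC80 (-1.58), ECT2 (-1.29), KIF2C (-1.25) and CDCA8 (-1.20). KIF18A, which dampens chromosome movements at the metaphase plate, was at 9.50, 22.50 and 27.55 FPKM in scramble, 3.83, 17.69 and 17.69 FPKM after SiREV1#1 and 5.02, 31.33 and 30.21 FPKM after SiREV1#2.

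The direction in replicate 1 was not the same in every role. Of the 6 kinesins 5 were lower and 0 higher, of the 6 spindle assembly genes 4 were lower and 1 higher, and of the 4 cytokinesis genes 3 were lower and 0 higher. Both transcription factors were higher, as were CDC20 (1.10 ± 0.19), PLK1 (0.93 ± 0.12) and SPC24 (1.57 ± 0.12). More than 2-fold lower levels in replicate 1 were found for 5 members in scramble (7.83% of all genes), 8 after SiREV1#1 (10.8%) and 9 after SiREV1#2 (11.1%). More than 2-fold higher levels were found for 1 (5.93%), 3 (5.87%) and 1 (7.90%). Of the 35 G1/S genes, 26 were higher and 3 lower in replicate 1. GADD45A, a stress-induced inhibitor of CDK1, was at 10.95, 257.28 and 251.81 FPKM in scramble, and at 11.74 and 8.02 FPKM in replicate 1 after SiREV1#1 and SiREV1#2. The labels name no batch, so whether replicate 1 was a separate experiment was not tested.

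**Figure D4:**
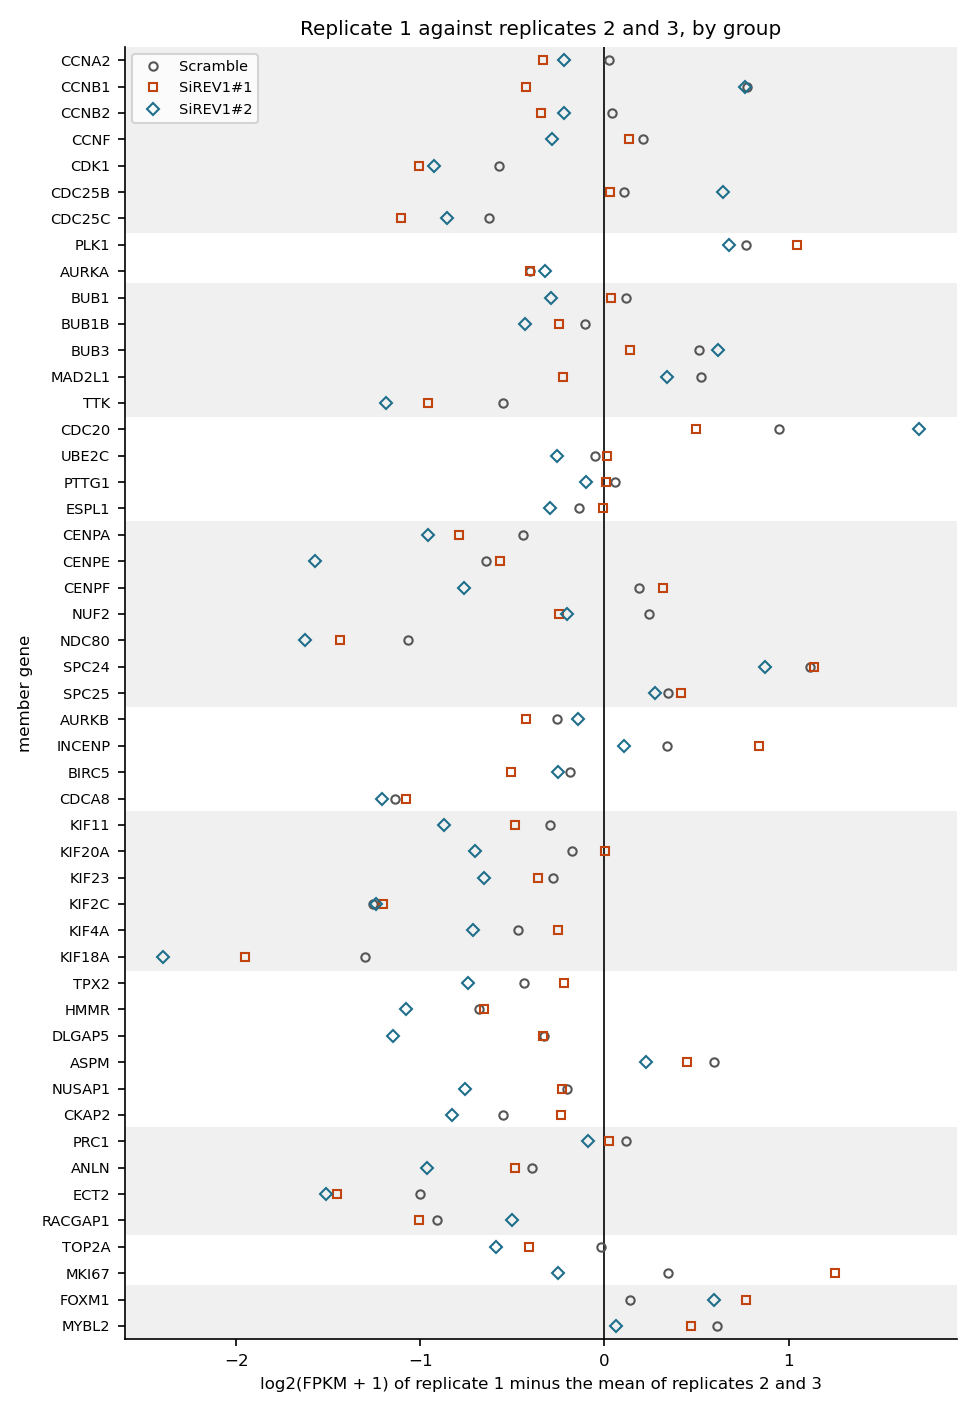
Each point is the log2(FPKM + 1) of replicate 1 minus the mean of replicates 2 and 3 in the same group, for each of the 49 genes in the order of their roles, with scramble as circles, SiREV1#1 as squares and SiREV1#2 as diamonds. KIF18A is the lowest gene in each of the 3 groups, and CDC20, PLK1 and SPC24 lie above 0 in all of them.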

How the data were processed

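RNA-seq tables of 9 A549 libraries were used. The authors deposited FPKM and an expected count per gene, 42.6% of which are not whole numbers. The submitters' processing notes name StringTie 1.3.3b and the build hg38, and the aligner is not given in the sources used here. Expected counts were rounded. The count column of SiREV1#2 replicate 3 carries another library's name and repeats SiREV1#2 replicate 2 in 100.0% of genes, so 1 column was not used.

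Genes were filtered with filterByExpr (14205 kept), scaled by TMM and tested with edgeR 4.0.16 (quasi-likelihood F test) in 1 fit holding all 3 groups, with p-values adjusted over every gene tested by the Benjamini-Hochberg method and called under 0.05. The replicate number was added as a block in a second fit, because same-numbered libraries deviated together from their group means (mean r 0.816, from 0.734 to 0.929 over 9 pairs and 11429 genes). This correlation follows the shift of replicate 1, and libraries with different numbers were not compared. It therefore cannot show that replicates 2 and 3 were matched by number between groups, and the labels name no shared batch. Another fit held group and an indicator of replicate 1. Pair ratios used log2(FPKM + 1), with 2-fold as the limit of a large difference, and understate changes of low genes. The alternatives were DESeq2 1.42.0 and limma 3.58.1 on log2(FPKM + 1) or log2(FPKM + 0.1), no filter, replicates 2 and 3 only, and leaving out single libraries, the last also with the block (added after seeing the data). The edgeR fits without a block, with the block and with the replicate 1 term were run on simulated counts, as were DESeq2 and limma with the block. The other alternatives were not.

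The members and lists were chosen with earlier results of these data known. Named genes were REV1, 15 central mitotic genes in every comparison, and in each comparison up to 8 passing members, taken by p, and the 3 with the highest and lowest log2 fold change, with at most 5 passing genes from each other list. Other members are given by role. The genes with FPKM of every library in the text were chosen among these after their values were seen. Motifs were searched on both strands of RefSeq windows. Intervals of counting error are not given per gene. Each SE was worked back from the edgeR test, as the size of the log2 fold change over the square root of its F statistic.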

Additional observations from a re-analysis of the deposited data

Results flagged for a closer look

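These members differed between the siRNAs by a test of the difference itself (edgeR, quasi-likelihood, log2 of SiREV1#1 over SiREV1#2). MYBL2 differed by 2.28 without a block (adjusted p = 0.0359) and by 2.36 with it (adjusted p = 0.000712), and was higher after SiREV1#1 in 3 of 3 same-numbered pairs of FPKM. With the block, CDC20 differed by 1.09 (adjusted p = 0.0311), CDK1 by -1.25 (adjusted p = 0.00282), CDCA8 by -1.12 (adjusted p = 0.00310) and AURKA by -1.05 (adjusted p = 0.00367). KIF4A differed by -0.86 (adjusted p = 0.0174), NDC80 by -0.78 (adjusted p = 0.0467), BUB1B by -0.62 (adjusted p = 0.0329) and PTTG1 by -0.51 (adjusted p = 0.0438). In MYBL2 and CDC20 the lower level was after SiREV1#2, and in the other 7 after SiREV1#1. With the block these 9 of 49 members (18.4%) stand beside 17.6% of all genes called, and leaving out 1 library gave 4 to 16 members.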

How the results depend on the processing

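The number of members called depended on how replicate 1 was handled. After SiREV1#1 it was 0 without a block, 1 with limma at either pseudocount, 7 with DESeq2, 23 with the replicate block, 29 with limma and the block, and 44 with replicates 2 and 3 only, where the libraries of a group are close to each other. After SiREV1#2 it was 0, 1, 1, 3, 10 and 28 in the same order, and between the siRNAs 1, 3, 3, 9, 19 and 38. All calls against scramble were lower except 2 of the 28, and of the 38 between the siRNAs 31 were lower and 7 higher after SiREV1#1. Of all genes, DESeq2 called 4.01%, limma with the block 15.5% and replicates 2 and 3 alone 46.7% after SiREV1#1, 1.52%, 8.61% and 45.4% after SiREV1#2, and 6.18%, 30.8% and 60.7% between the siRNAs. Limma without the block called at most 0.845%, 0.394% and 4.17% of all genes. Leaving out 1 library with the block gave 2 (without scramble replicate 3 or SiREV1#1 replicate 3) to 36 (without SiREV1#1 replicate 1) after SiREV1#1, with 3, 4, 9 and 28 for the others. After SiREV1#2 it gave 0, 2, 3 and 13, and between the siRNAs 4, 5, 6, 14 and 16. Without the block, leaving out 1 library gave 0, 0 and 0 to 1. A fit that lost a library has fewer residual degrees of freedom. SiREV1#2 had counts from replicates 1 and 2 only, so a fit without either of them held 1 library of that group. Dropping the filter gave the counts of the main fit, and no alternative moved the count of 31 for replicate 1 by over 1.5 times. The median over members between the siRNAs went from -0.3775 to 0.0634 over single libraries left out. The summed level without the 3 most abundant genes was 0.2918%, 0.1854% and 0.2284% of all FPKM.

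Small differences turned sign, none of them called with or without the block. MYBL2 after SiREV1#1 was -0.0447 with limma, with or without the block, and -0.0454 at the smaller pseudocount. SPC24 after SiREV1#1 was -0.0941 with limma, with or without the block, -0.1259 at the smaller pseudocount and -0.1007 in replicates 2 and 3. After SiREV1#2, HMMR was 0.0618 with the block, 0.0422 with limma, with or without the block, 0.0415 at the smaller pseudocount and 0.1749 in replicates 2 and 3, where CENPF was 0.2351. Over single libraries left out, log2 fold changes after SiREV1#1 ran from -0.734 to 0.1213 for PLK1, from -0.2152 to 0.2722 for MYBL2, from -0.3267 to 0.0389 for SPC25 and from -0.6328 to 0.9012 for SPC24. After SiREV1#2 they ran from -0.7307 to 0.1265 for CCNB1, from -0.6075 to 0.0872 for PLK1, from -0.0993 to 0.2071 for AURKA and from -0.6041 to 0.24 for CENPF. They ran from -0.7998 to 0.1064 for KIF11, from -0.7324 to 0.4486 for HMMR and from -0.3691 to 0.3981 for NUSAP1. The upper ends for CCNB1, CENPF, KIF11 and HMMR and the lower ends for AURKA and NUSAP1 rest on 1 SiREV1#2 library. In such a fit the shift of replicate 1 cannot be told apart from the siRNA.

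The cause of these changes was not tested. The common biological coefficient of variation was 0.412 without the block and 0.161 with it, and this spread limits what 3 replicates can show.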
